A study of Mus musculus with 25 samples.

Results

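The integrin and laminin subunit genes of the mouse pituitary were followed through RB knock-down and RB re-expression. The members were all gene symbols of the deposited tables that begin with Itga or Itgb, without the integrin-binding-protein genes (names with bp), and the symbols Lama, Lamb or Lamc followed by 1 digit. This rule found 37 genes among the 15768 named genes of both tables, of which 26 were integrin genes (17 alpha, 8 beta and the beta-like gene *Itgbl1*) and 11 were laminin genes (5 alpha, 3 beta and 3 gamma). All 37 were in the long-term table and 35 in the short-term table, which did not list *Itgae* and *Itgb6*, and every listed member passed the filter on low reads.

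The 25 pituitaries came from sh*Rb* mice, which carry the reverse tetracycline transactivator at *Rosa26* and a GFP-linked shRNA against *Rb* at *Col1a1*, so that doxycycline (dox) in the drinking water lowers *Rb* mRNA. The paper describes the sequenced samples of both experiments as pituitary tumors, so each comparison below is between glands with tumors. In the long-term experiment the mice had received dox for 6 weeks (6w+dox, n = 3, all female), for 12 weeks (12w+dox, n = 4, 2 of each sex), or for 6 weeks followed by 6 weeks without dox (12w-res, n = 5, 3 female and 2 male). In the short-term experiment all mice had received dox for 16 weeks and were killed on dox (16w+dox, n = 3, male) or 1 day (1d-dox, n = 4, female), 3 days (3d-dox, n = 3, male) or 5 days (5d-dox, n = 3, female) after its withdrawal. The animals were adults, and their exact ages are not given in the labels. As a model the line has limits: it rests on a single shRNA and a single embryonic stem cell clone, the *Rosa26* promoter is active in many tissues so that the knock-down was not confined to the pituitary, and all 7 groups carried both alleles and had received dox, with no untreated pituitary among them. The labels of the short-term mice tie sex to the day, so that sex and time off dox cannot be told apart in the comparisons of 1d-dox and 5d-dox with 16w+dox.

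Integrins are receptors of one alpha and one beta chain that tie a cell to the extracellular matrix or to other cells and pass signals in both directions across the membrane. Laminins are trimers of one alpha, one beta and one gamma chain that polymerize into the base of every basement membrane, and several integrins bind them. In the pituitary, basement membranes surround the lobules of hormone cells and the capillaries that drain them.

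Values are FPM, the deposited fragment counts scaled by size factors and not corrected for gene length. The long-term libraries (poly(A) selected) held 19066053 to 28968476 reads on genes and the short-term libraries (rRNA depleted) 9573101 to 13036900, and 1 read was worth at most 0.0590 and 0.0305 FPM. *Rb1* read 1.86, 2.54 and 5.09 FPM under 6w+dox, 3.45, 2.42, 2.93 and 4.05 under 12w+dox and 16.1, 17, 20.3, 19.2 and 18.2 after recovery (12w-res), in the direction of the labels. In the short-term mice the linked GFP read 1360.4, 1025 and 1354 FPM at 16w+dox and 10.5, 15.2 and 9.34 at 5d-dox. *Rb1* itself read 4.89, 3.47 and 4.21 FPM in the 16w+dox mice, 3.84, 3.76, 6.03 and 4.21 in the 1d-dox mice, 4.71, 4.28 and 6.03 in the 3d-dox mice and 5.38, 5.04 and 4.92 in the 5d-dox mice, with the 5d-dox mice just above all 16w+dox mice (0.27 on the log2 scale, adjusted p = 0.525 in limma, not called) and the other groups overlapping. Markers of melanotrophs and corticotrophs, the *Pomc* cells of the gland, summed to 111232 to 383332 FPM at 6w+dox, 99254 to 202312 at 12w+dox and 462948 to 584316 in 12w-res. None of the 7 was at 0. The sum does not speak for each marker. From 12w+dox to 12w-res limma called 2 of the 7 higher and 0 lower, while 4 lay below 0 and the median log2 difference was -0.055.

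Per kilobase of the longest annotated transcript, *Itgb1*, the common partner of most alpha chains, was the most abundant member in each of the 7 groups, with 79.9 ± 14.5 FPM per kb under 6w+dox, 87.5 ± 4.0 under 12w+dox and 114 ± 8.38 after recovery (12w-res) (mean ± SD, n = 3, 4 and 5). *Itga3*, an alpha chain that forms a laminin receptor with it, followed in every group except 6w+dox, where *Itgb5*, a beta chain that pairs with the alpha-v chain, stood at 14.4 ± 1.06 and *Itga3* at 12.8 ± 2.10 FPM per kb, so that their ranges of 1 SD overlap. Among the laminins, the gamma chain *Lamc1* led at 6w+dox and 12w+dox with 10.2 ± 0.915 and 9.23 ± 2.58 FPM per kb. In 12w-res the beta chain *Lamb1* stood above it, at 28.6 ± 8.56 against 12.2 ± 0.818 FPM per kb. The least abundant member in all 3 long-term groups was *Itga2*, a collagen receptor chain, with 0.157 ± 0.102 FPM per kb in 12w-res.

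The first question was how these genes differed after 6 weeks without dox in pituitaries of mice that had first received it. Between 12w-res and 12w+dox, 14 of the 37 members rose and none fell (adjusted p under 0.05 and more than 1 on the log2 scale, limma over all 15315 genes), where 6.24% of all genes rose and 5.04% fell. By edgeR and DESeq2, 16 members were called higher and 1, *Itga2b*, lower, where they called 14.1% and 14.6% of all genes in either direction, and in limma 2 members had an unadjusted p under 0.05 and a lower level (47.3% of all genes had such a p in either direction). The 14 were 9 of 26 integrin genes and 5 of 11 laminin genes. The median log2 difference over the members was 0.93, against -0.0040 over all genes, and 33 of 37 lay above 0. In 21 members every 12w-res mouse lay above every 12w+dox mouse, and 1 member lay below, compared with 17.1% and 17.4% of all genes. The scaling bears on these counts: with libraries scaled to their total reads on genes, the median of all genes moved to -0.61 and that of the members to 0.29, and 4 members were called higher and 2 lower, where 1.59% of all genes were called higher and 22% lower. Fewer cells of a type and less RNA per cell cannot be told apart in whole pituitaries.

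**Figure D1:**
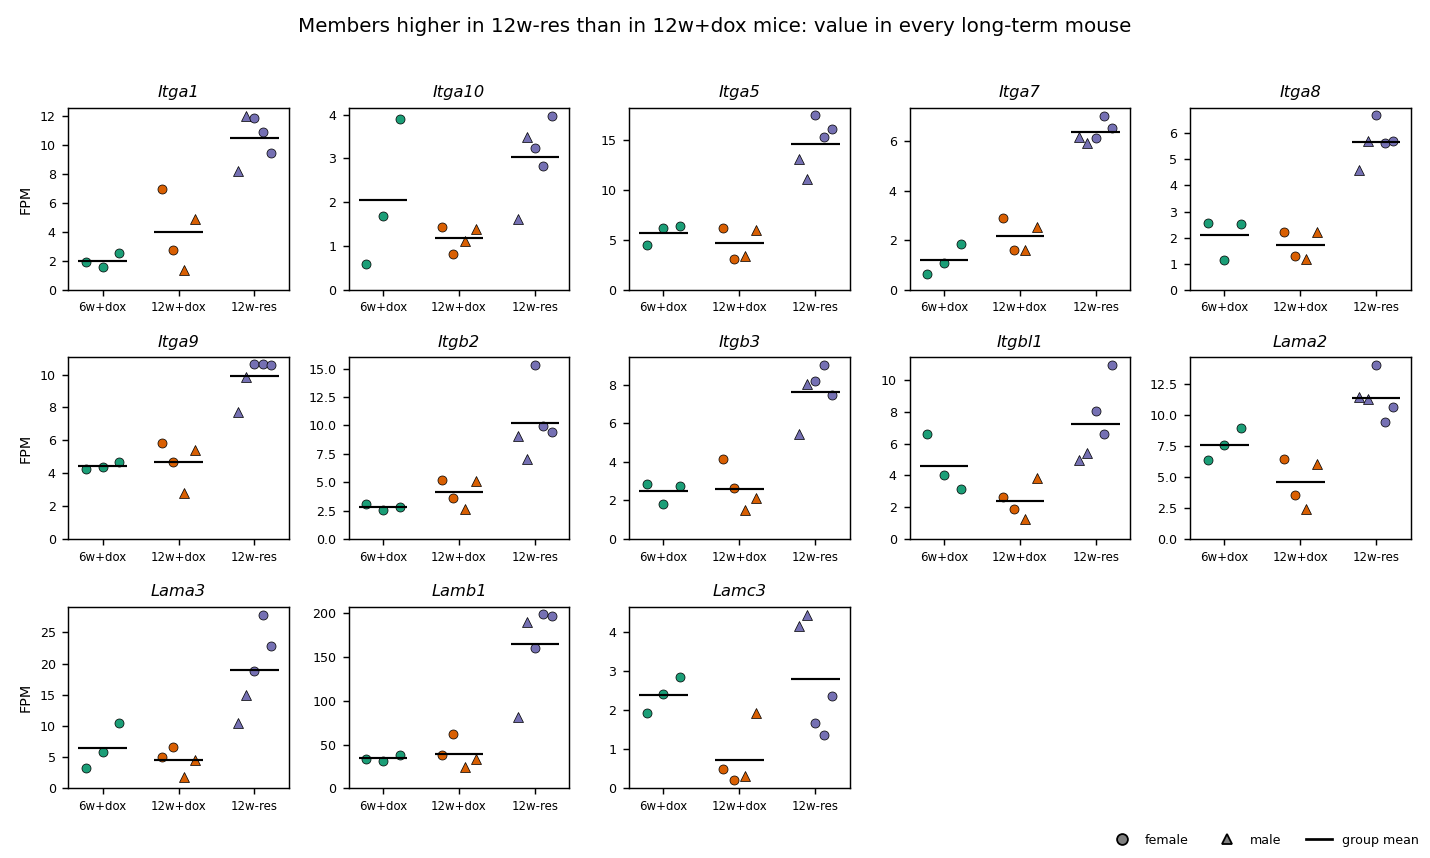
FPM (y axis, linear, from 0) of 13 of the 14 members that rose from 12w+dox to 12w-res, in each long-term mouse, by group on the x axis; circles are female mice, triangles male mice and lines group means. The 12w-res mice lie above all 12w+dox mice in every panel except that of *Lamc3*, where the groups overlap.

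Laminin chains showed the largest differences. *Lamb1* (chr12:31265146-31329644, GRCm38.p6), the beta chain of most embryonic and many adult basement membranes, read 33.8, 31.8 and 38.0 FPM in the 6w+dox mice, 38.2, 61.9, 24.1 and 33.3 in the 12w+dox mice and 81.2, 190.4, 160.2, 199 and 196 in the 12w-res mice. The lowest 12w-res mouse, a male, still stood above the highest of the 7 dox-treated mice, and the other 4 stood at 160.2 FPM or more. The log2 fold change from 12w+dox was 2.07 ± 0.27 (SE, adjusted p = 5.83e-05 in limma), which is 4.19-fold.

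*Lama3*, an alpha chain of the laminin under epithelia, read 3.26, 5.79 and 10.5 FPM in the 6w+dox mice, 5.02, 6.59, 1.88 and 4.55 in the 12w+dox mice and 10.5, 15, 18.8, 27.8 and 22.9 in the 12w-res mice. Every 12w-res mouse exceeded every 12w+dox mouse, and the highest 6w+dox mouse was level with the lowest 12w-res mouse. *Lama3* rose by 1.99 ± 0.36 on the log2 scale (adjusted p = 7.76e-04 in limma). *Lamb3*, a beta chain of epithelial laminin, did not pass: it read 2.5, 2.23 and 2.19 FPM in the 6w+dox mice, 2.97, 0.874, 0.616 and 1.48 in the 12w+dox mice and 3.85, 0.792, 4.73, 2.83 and 2.27 in the 12w-res mice, with groups that overlap and a log2 difference of 0.77 ± 0.38 (adjusted p = 0.131 in limma).

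*Lama2*, the alpha chain of muscle and nerve basement membranes, read 6.35, 7.57 and 8.94 FPM in the 6w+dox mice, 6.46, 3.56, 2.46 and 6.09 in the 12w+dox mice and 11.5, 11.3, 14.1, 9.45 and 10.6 in the 12w-res mice. All 12w-res mice were above all dox-treated mice, and the dox-treated groups overlapped each other, with a log2 fold change of 1.28 ± 0.24 from 12w+dox (adjusted p = 8.53e-04 in limma). *Lama4*, an alpha chain of vessel walls, also separated 12w-res from all dox-treated mice, at 6.46, 7.62 and 8.11 FPM in the 6w+dox mice, 9.49, 5.45, 6.35 and 11.3 in the 12w+dox mice and 14.1, 14.3, 18.7, 17.5 and 14.1 in the 12w-res mice, and missed the fold threshold with 0.95 ± 0.20 on the log2 scale (adjusted p = 0.00186 in limma). *Lamc3*, a rarer gamma chain, read 1.92, 2.41 and 2.86 FPM in the 6w+dox mice, 0.489, 0.204, 0.308 and 1.93 in the 12w+dox mice and 4.16, 4.44, 1.68, 1.36 and 2.38 in the 12w-res mice. It rose by 1.5 ± 0.37 from 12w+dox (adjusted p = 0.00598 in limma), with groups that overlap and levels in 12w-res close to those at 6w+dox.

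The remaining laminins moved less. *Lamc1*, the gamma chain of most laminins, read 70.1, 83.4 and 80.4 FPM in the 6w+dox mice, 84.9, 67.5, 43.6 and 85.3 in the 12w+dox mice and 96.0, 90.0, 98.4, 97.9 and 83.8 in the 12w-res mice, a log2 difference of 0.45 ± 0.16 between 12w-res and 12w+dox. Its groups overlap, and under scaling by total reads the difference turned to -0.20. *Lamb2*, the beta chain of synaptic and vessel laminins, read 44.0, 47.5 and 45.5 FPM in the 6w+dox mice, 30.7, 22.1, 22.5 and 41.4 in the 12w+dox mice and 25.7, 26.2, 30.1, 25.9 and 27.3 in the 12w-res mice, with a log2 difference of -0.06 (95% interval -0.40 to 0.27) from 12w+dox. *Lama5*, an alpha chain of epithelia and vessels, lay between 14.8 and 44.4 FPM in the 12 long-term mice and differed by 0.33 (95% interval -0.21 to 0.87).

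Among integrin chains that bind collagens, *Itga1* (chr13:114958079-115101964) read 1.92, 1.56 and 2.57 FPM in the 6w+dox mice, 6.98, 2.74, 1.36 and 4.91 in the 12w+dox mice and 8.22, 12.0, 11.9, 10.9 and 9.45 in the 12w-res mice. All 12w-res mice were above all 7 dox-treated mice, and the log2 fold change from 12w+dox was 1.46 ± 0.32 (adjusted p = 0.00274 in limma). *Itga10*, a collagen receptor chain of cartilage, read 0.582, 1.69 and 3.89 FPM in the 6w+dox mice, 1.43, 0.816, 1.11 and 1.40 in the 12w+dox mice and 1.61, 3.49, 3.23, 2.83 and 3.98 in the 12w-res mice, so that 2 of the 3 6w+dox mice lay within the 12w-res range. It passed with 1.04 ± 0.34 (adjusted p = 0.0268 in limma) and did not pass without 12w+dox replicate 2 or 3, or without 12w-res replicate 2, 3 or 5, when its adjusted p was 0.0536 to 0.0767 in limma. The other collagen-binding chains were rare. *Itga2* read 0.175, 0 and 0.538 FPM in the 6w+dox mice, 0.628, 0.670, 0.462 and 0.614 in the 12w+dox mice and 0.572, 0.634, 0.683, 2.24 and 1.44 in the 12w-res mice, and *Itga11*, a chain of fibroblasts, read 0.524, 0.445 and 1.12 FPM in the 6w+dox mice, 1.12, 1.02, 0.832 and 1.14 in the 12w+dox mice and 1.09, 1.22, 2.05, 1.18 and 1.77 in the 12w-res mice. Their 12w-res and 12w+dox differences were 0.46 and 0.34 on the log2 scale and did not pass, and against 6w+dox DESeq2 called *Itga11* at 1.05 (adjusted p = 0.0391).

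Of the laminin-binding alpha chains, *Itga7* (chr10:128933421-128958286), best known from muscle, read 0.640, 1.07 and 1.86 FPM in the 6w+dox mice, 2.90, 1.60, 1.60 and 2.54 in the 12w+dox mice and 6.19, 5.92, 6.14, 7.03 and 6.52 in the 12w-res mice. The 12w-res mice were tightly grouped and lay above all others, with a log2 fold change of 1.40 ± 0.23 (adjusted p = 3.15e-04 in limma). *Itga3* (chr11:95044475-95076844) read 68.0, 68.3 and 50.5 FPM in the 6w+dox mice, 106, 108, 76.7 and 100.2 in the 12w+dox mice and 179, 190.2, 188, 212 and 189 in the 12w-res mice. Its 3 groups did not overlap at any point, with 6w+dox lowest and 12w-res highest, yet the step from 12w+dox to 12w-res was 0.98 ± 0.12 (adjusted p = 4.10e-05 in limma), just under the fold threshold. *Itga6*, the alpha chain of hemidesmosomes and of many stem cells, read 9.96, 9.84 and 12.0 FPM in the 6w+dox mice, 14.7, 9.41, 9.76 and 14.7 in the 12w+dox mice and 16.3, 16.5, 16.3, 18.8 and 15.4 in the 12w-res mice, a log2 difference of 0.47 that turned to -0.17 under scaling by total reads.

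The fibronectin receptor chain *Itga5* (chr15:103344286-103366791) read 4.48, 6.15 and 6.42 FPM in the 6w+dox mice, 6.21, 3.12, 3.39 and 5.95 in the 12w+dox mice and 13.1, 11, 17.4, 15.3 and 16.1 in the 12w-res mice. The lowest 12w-res mouse stood far above the highest dox-treated mouse, and the log2 fold change from 12w+dox was 1.59 ± 0.22 (adjusted p = 8.35e-05 in limma). *Itga8*, a receptor chain for nephronectin, read 2.56, 1.16 and 2.53 FPM in the 6w+dox mice, 2.23, 1.31, 1.17 and 2.21 in the 12w+dox mice and 4.58, 5.71, 6.69, 5.61 and 5.69 in the 12w-res mice, and *Itga9*, which binds tenascin C, read 4.25, 4.41 and 4.68 FPM in the 6w+dox mice, 5.86, 4.69, 2.77 and 5.45 in the 12w+dox mice and 7.75, 9.88, 10.6, 10.6 and 10.6 in the 12w-res mice. Both separated 12w-res from all dox-treated mice, and they rose by 1.49 ± 0.23 and 1.04 ± 0.19 from 12w+dox (adjusted p = 2.30e-04 and 9.85e-04 in limma), although *Itga9* stood at 0.83, under the fold threshold, without 12w+dox replicate 3.

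The beta chain *Itgb3*, which pairs with the alpha-v chain, read 2.85, 1.83 and 2.73 FPM in the 6w+dox mice, 4.15, 2.62, 1.51 and 2.12 in the 12w+dox mice and 5.46, 8.03, 8.19, 9.03 and 7.46 in the 12w-res mice. The groups on either side of dox withdrawal were apart, with a log2 fold change of 1.44 ± 0.24 (adjusted p = 3.80e-04 in limma). *Itgb5*, the more abundant partner of the alpha-v chain, read 50.4, 48.1 and 43.6 FPM in the 6w+dox mice, 45.6, 51.0, 39.6 and 46.9 in the 12w+dox mice and 76.1, 82.0, 105, 96.2 and 94.8 in the 12w-res mice, with no overlap and a log2 difference of 0.98 ± 0.11. The alpha-v chain itself, *Itgav*, lay between 9.92 and 31.2 FPM in the long-term mice, and *Itga4* read 1.57, 3.38 and 5.42 FPM in the 6w+dox mice, 3.56, 1.69, 2.19 and 3.52 in the 12w+dox mice and 5.15, 6.55, 5.37, 5.61 and 5.42 in the 12w-res mice. *Itgav* differed by 0.93 ± 0.21, and *Itga4*, a receptor chain for VCAM1, by 0.96 ± 0.28 (adjusted p = 1.90e-05, 0.00318 and 0.0136 in limma). These 3 had an adjusted p under the threshold and a difference just short of the fold threshold, and of them edgeR and DESeq2 called *Itga4* only. *Itgbl1*, a secreted protein with repeats like those of the beta chains, read 6.58, 4.01 and 3.15 FPM in the 6w+dox mice, 2.65, 1.89, 1.23 and 3.85 in the 12w+dox mice and 4.99, 5.44, 8.06, 6.61 and 10.9 in the 12w-res mice, which is higher in 12w-res than in 12w+dox without overlap (log2 1.44 ± 0.29, adjusted p = 0.00179 in limma), while 2 of the 3 6w+dox mice lay below all 12w-res mice.

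*Itgb1* read 353, 317 and 245 FPM in the 6w+dox mice, 352, 315, 332 and 337 in the 12w+dox mice and 399.6, 402, 464, 463 and 445 in the 12w-res mice. All 12w-res mice were above all dox-treated mice, but the step was small, at 0.38 ± 0.12 on the log2 scale (adjusted p = 0.0206 in limma), and under scaling by total reads it became -0.28. *Itgb6*, the epithelial partner of the alpha-v chain, read 0.524, 0.445 and 1.2 FPM in the 6w+dox mice, 0.489, 0.321, 0.585 and 0.503 in the 12w+dox mice and 0.728, 0.792, 1.09, 1.59 and 1.05 in the 12w-res mice, with no overlap between 12w-res and 12w+dox, and edgeR and DESeq2 called it higher in 12w-res at 1.15 and 1.15 (adjusted p = 0.0392 and 0.0287) where limma gave 0.65. *Itgb4*, *Itgb7* and *Itgae*, chains of epithelia and of lymphocytes, lay between 1.61 and 3.46, 0.462 and 1.87 and 0.233 and 1.22 FPM in the long-term mice, and differed by -0.01, 0.23 and 0.10.

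The beta2 integrins are carried by leukocytes, with *Itgb2* as the shared beta chain and *Itgal*, *Itgam* and *Itgax* as alpha chains. *Itgb2* read 3.09, 2.58 and 2.81 FPM in the 6w+dox mice, 5.20, 3.64, 2.62 and 5.14 in the 12w+dox mice and 9.10, 7.08, 15.3, 9.92 and 9.45 in the 12w-res mice. It rose by 1.2 ± 0.23 from 12w+dox and by 1.64 ± 0.25 from 6w+dox, with all 12w-res mice above all others (adjusted p = 0.00110 and 2.20e-04 in limma). *Itgax*, a chain of dendritic cells and macrophages, read 1.34, 4.63 and 2.77 FPM in the 6w+dox mice, 9.63, 6.41, 3.97 and 3.69 in the 12w+dox mice and 10.2, 12.2, 13.8, 7.85 and 7.68 in the 12w-res mice, and *Itgam*, a chain of macrophages and granulocytes, read 0.990, 1.43 and 2.07 FPM in the 6w+dox mice, 5.02, 2.13, 2.13 and 2.29 in the 12w+dox mice and 5.98, 3.54, 4.41, 4.13 and 3.15 in the 12w-res mice. Both overlapped between 12w-res and 12w+dox, where their differences were 0.82 and 0.53, and both were called against 6w+dox, at 1.76 ± 0.35 and 1.26 ± 0.29 (adjusted p = 0.00154 and 0.00397 in limma). *Itgal*, the chain of the lymphocyte receptor LFA-1, read 3.73, 3.92 and 5.09 FPM in the 6w+dox mice, 7.82, 6.65, 2.86 and 4.50 in the 12w+dox mice and 7.54, 9.25, 8.24, 7.68 and 9.73 in the 12w-res mice and missed the fold threshold in limma in both comparisons, at 0.67 and 0.93, of which edgeR called the second. Of 12 myeloid marker genes, 2 rose from 12w+dox to 12w-res, where 6.24% of all genes did, and all 12 lay above 0 (median 0.82). Against 6w+dox, 11 lay above 0 and 1 below (median 0.82), and 2 were called higher, where 5.81% of all genes were. The 12 summed to 118 to 173 FPM under 6w+dox, 120.1 to 163 under 12w+dox and 194 to 284 after recovery (12w-res), with none at 0 in any long-term mouse. Of 8 measured lymphocyte markers, 0 were called between 12w-res and 12w+dox (median 0.09). Against 6w+dox, 7 of the 8 lay below 0 and 1 was called lower. The 2 measured neutrophil markers lay below 0 in both comparisons (medians -0.75 and -0.20) and were not called. The part of these cells in the beta2 values was not tested.

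Of the 4 members below 0 in this comparison, *Itga2b* and *Itgb8* had an adjusted p under the threshold in limma, short of its fold threshold. *Itga2b*, the alpha chain of the platelet fibrinogen receptor, read 10.6, 10.7 and 11.1 FPM in the 6w+dox mice, 9.32, 12.7, 13.7 and 13.1 in the 12w+dox mice and 6.71, 5.28, 6.69, 5.67 and 5.91 in the 12w-res mice. Every 12w-res mouse lay below every dox-treated mouse in *Itga2b*, with a log2 difference of -0.95 ± 0.15 from 12w+dox (adjusted p = 2.22e-04 in limma), while edgeR and DESeq2 gave -1.0 and -1.01. Its partner *Itgb3* rose in the same mice. The summed level of 5 measured platelet and erythroid markers was 8.98 to 15.3 FPM at 12w+dox and 14.2 to 17.5 in 12w-res, 1 of the 5 was called higher and none lower, and the part of those cells was not tested.

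*Itgb8* (chr12:119162803-119238276), the beta chain that with the alpha-v chain activates latent TGF-beta, was the only member that limma called higher at 12w+dox than at 6w+dox, where 3.15% of all genes were called higher. DESeq2 added *Itgax* at 1.01 (adjusted p = 0.0456). *Itgb8* read 0.582, 1.43 and 2.44 FPM in the 6w+dox mice, 8.30, 15.2, 7.64 and 8.27 in the 12w+dox mice and 4.58, 7.87, 4.14, 4.49 and 3.92 in the 12w-res mice. All 12w+dox mice were above all 6w+dox mice, and the 12w-res mice lay between, except for 1 whose level was within the 12w+dox range. The log2 fold change from 6w+dox was 2.45 ± 0.34 for 12w+dox and 1.55 ± 0.32 for 12w-res (adjusted p = 4.83e-04 and 0.00224 in limma), and the difference of 12w-res from 12w+dox was -0.90 ± 0.29, short of the fold threshold. In the short-term mice, after 16 weeks on dox, *Itgb8* read 11.4, 7.24 and 11.8 FPM in the 16w+dox mice, 12.8, 9.07, 9.95 and 9.66 in the 1d-dox mice, 10.8, 11.6 and 10.3 in the 3d-dox mice and 11.7, 12.6 and 14.1 in the 5d-dox mice, with overlapping groups and no call.

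**Figure D2:**
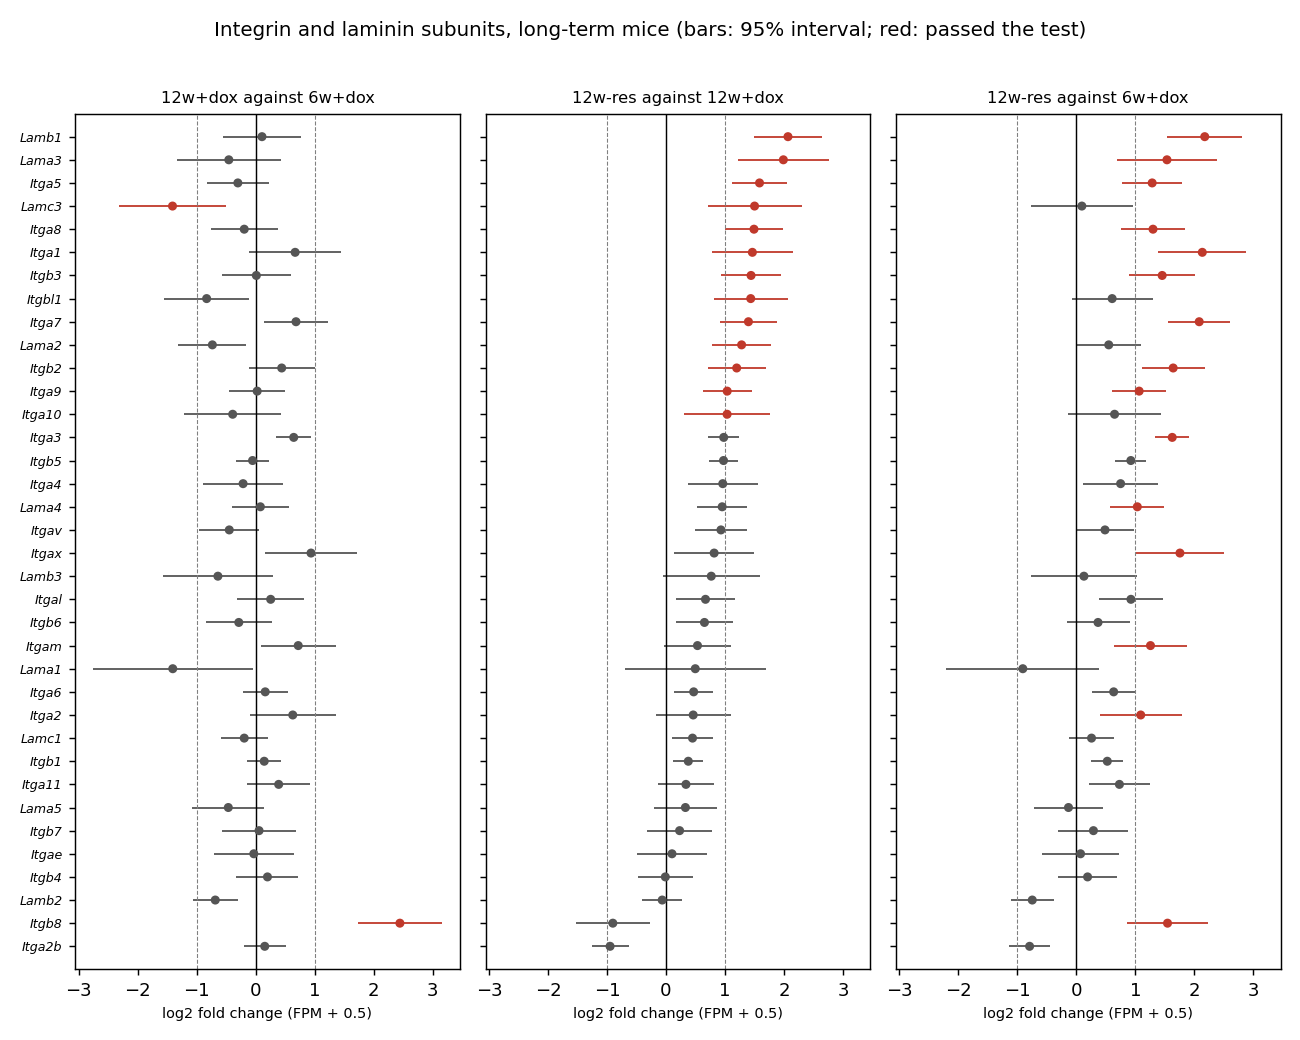
Log2 fold change of FPM + 0.5 (x axis, the same range in the 3 panels) with its 95% interval for 36 of the 37 members (y axis) in 12w+dox against 6w+dox, 12w-res against 12w+dox and 12w-res against 6w+dox; dashed lines mark a change of 1 and red members passed the test. In the middle panel 13 members are red and all lie to the right, while in the left panel only *Itgb8* and *Lamc3* are red.

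Over the further 6 weeks of dox that separate 12w+dox from 6w+dox, few members moved. Besides *Itgb8*, *Lamc3* was called lower, with -1.41 ± 0.42 (adjusted p = 0.0288 in limma), where 4.04% of all genes were called lower. This call is fragile: the groups overlap by 1 mouse, edgeR gave an adjusted p of 0.0678, and it was lost when any of 6w+dox replicates 1 to 3 or 12w+dox replicates 1 to 3 was left out, with an adjusted p of 0.0523 to 0.0889 in limma. The median over the 37 members was 0.013, against -0.0063 over all genes. For the 11 laminins it was -0.46, with 9 below 0, and for the 26 integrins 0.15. Markers of other cells were lower in the same mice: 6 of 10 of the other hormone cells, 7 of 10 of the neural lobe and Schwann cells, 5 of 14 of mural cells and fibroblasts, 4 of 11 endothelial and 4 of 8 stem and folliculostellate markers fell, and none rose. Their part in the laminin values was not tested. *Lamb2* differed without overlap by -0.68 ± 0.18 (adjusted p = 0.0162 in limma) and *Itga3* differed by 0.65 ± 0.14 (adjusted p = 0.00639 in limma), both short of the fold threshold.

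Against 6w+dox, 16 members rose in 12w-res and none fell, where 5.81% of all genes rose and 5.82% fell, and the median was 0.75 over the members and -0.021 over all genes. In limma 22 members had an unadjusted p under 0.05 and a higher level and 2 a lower level. Of all 15315 genes, 3345 and 3395 did. By edgeR and by DESeq2 17 members were called higher and none lower, where they called 13.7% and 14.4% of all genes in either direction. In 21 members all 12w-res mice lay above all 6w+dox mice and in 2 below, compared with 16.9% and 15.9% of all genes. The 6w+dox mice were all female, and among females alone 17 members were called higher and 1, *Lama1*, lower, where 6.59% and 6.44% of all genes were. This comparison shares the 12w-res mice with the one above. The rise was led by *Lamb1* (2.18 ± 0.30), *Itga1* (2.13 ± 0.35) and *Itga7* (2.08 ± 0.25). It took in *Itga3* at 1.63 ± 0.13 (adjusted p = 8.95e-05, 3.84e-04, 2.59e-05 and 8.93e-07 in limma). *Lama3*, *Lama4*, *Itga5*, *Itga8*, *Itga9* and *Itgb3* rose by 1.03 to 1.54. The *Lama4* difference was under 1 without 12w-res replicate 3 (0.97) or 4 (0.99) or without 6w+dox replicate 1 (0.95). *Itga2*, the collagen receptor chain of platelets and epithelia, rose by 1.09 ± 0.32 (adjusted p = 0.0187 in limma). At such low values the log2 scale with a pseudocount understates the change, its adjusted p was 0.0521 and 0.105 in limma without 6w+dox replicate 1 or 2, and its difference was under 1 without 12w-res replicate 4 or 5. Under scaling by total reads, 10 members were called higher and 2 lower, where 3.25% and 10.7% of all genes were, and the median of all genes moved to -0.33. Lower without overlap were *Itga2b* and *Lamb2*, with log2 differences of -0.79 and -0.75 (adjusted p = 0.00180 and 0.00432 in limma).

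With both dox-treated groups together, 15 members had all 5 12w-res mice above all 7 dox-treated mice, where 8.3% of all genes did, and 1 member, *Itga2b*, had all 12w-res mice below them, where 8.49% did. Among the 15 were *Itga1*, *Itga3*, *Itga5*, *Itga6*, *Itga7*, *Itga8*, *Itga9*, *Itgb1*, *Itgb2*, *Itgb3*, *Itgb5*, *Lama2*, *Lama4* and *Lamb1*. The 15 are 11 integrin genes and 4 laminin genes, a count added after the values were seen.

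Markers of other cells moved in the same mice. Of 14 mural cell and fibroblast markers, 14 rose from 12w+dox to 12w-res, and their summed level was 469 to 514 FPM under 6w+dox, 217 to 631 under 12w+dox and 1132 to 1734 after recovery (12w-res). Of 11 endothelial markers, 9 rose, with 223 to 285, 83.4 to 161 and 249 to 334 FPM. The endothelial sums of 12w-res and 6w+dox overlap, whereas those of mural cells and fibroblasts do not. No marker of either list was at 0 in a long-term mouse. Stem and folliculostellate markers, of which 3 of 8 rose, summed to 324 to 576, 262 to 325 and 478 to 589 FPM. Markers of the other hormone cells summed to 57340.2 to 92701 FPM under 6w+dox, 1178 to 12636 under 12w+dox and 16703 to 32373 after recovery (12w-res), and 2 of 10 rose from 12w+dox while 3 of 10 were called lower than at 6w+dox. Neural lobe and Schwann markers summed to 102 to 199.6, 63.7 to 85.0 and 48.9 to 65.4 FPM, and 6 of 10 were called lower in 12w-res than at 6w+dox. The part of these cells in the integrin and laminin values was not tested.

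The other genes of the pathway were read from lists of hand-picked genes. Of 15 partners of laminin in the basement membrane, 9 rose from 12w+dox to 12w-res and none fell, among them *Col15a1* (2.10) and the collagen IV chain *Col4a1* (2.05, adjusted p = 2.63e-05 and 2.69e-04 in limma). The median of this list was 1.40. Of 20 measured integrin ligands other than laminins, 13 rose, led by osteopontin (*Spp1*, 2.40) and *Mfge8* (2.20, adjusted p = 1.82e-04 and 9.44e-06 in limma), and the median was 1.19. Fibronectin, the ligand of the *Itga5* chain, was called in each step: *Fn1* was higher by 2.61 at 12w+dox than at 6w+dox and by 2.16 in 12w-res than at 12w+dox (adjusted p = 0.00139 and 5.95e-04 in limma).

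Of 32 measured genes of the adhesion machinery, the proteins that link integrins to actin, 3 rose from 12w+dox to 12w-res, where 6.24% of all genes rose. These were *Apbb1ip* (1.25), *Lims2* (1.09) and *Tns1* (1.02), and the median of the list was 0.32. The same 3 and *Parvb* were called lower at 12w+dox than at 6w+dox, where 4.04% of all genes were. None of the 32 was called between 12w-res and 6w+dox, where 5.81% of all genes rose and 5.82% fell. The named genes of this short list, and the *Fn1* step from 12w+dox, were named after their values were seen. Of 12 other laminin receptors and tetraspanins, 1 rose from 12w+dox to 12w-res, where 6.24% of all genes did. It was the tetraspanin *Cd9* (1.02, adjusted p = 0.00336 in limma), and the median of the list was 0.46. Against 6w+dox, 12w-res had 7 of the 15 basement membrane partners, 11 of the 20 ligands and 2 of the 12 other receptors called higher and none of these lower. Of all genes, 5.81% were called higher and 5.82% lower there.

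*Lama1*, the alpha chain of laminin-111, was called in no limma comparison over mice of both sexes without sex in the fit, and its level differed between the sexes. In the 12w+dox mice it read 3.84 and 1.08 FPM in females and 11.4 and 10.8 in males. In 12w-res it read 4.78, 4.13 and 4.53 in females and 15.7 and 13.7 in males, so that the sexes did not overlap in either group. The 3 female 6w+dox mice overlapped the males of both groups, at 10.5, 12.6 and 21.1 FPM. In a limma fit of group and sex over the 12 long-term mice, added after the values were seen, *Lama1* was higher in males by 1.85 ± 0.28 on the log2 scale (adjusted p = 0.0329), and it was the only one of the 37 members called, where 0.0457% of all genes were called in either direction. With sex in the fit, *Lama1* was also called lower at 12w+dox than at 6w+dox, with -2.33 (adjusted p = 0.00144 in limma), compared with -1.40 ± 0.63 without it (adjusted p = 0.125 in limma). Among the females alone the value was -2.48 (adjusted p = 0.0135 in limma).

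*Lamc3* had a difference of the same sign, 0.93 ± 0.29 (SE), with an unadjusted p of 0.00686 and an adjusted p of 0.796 in limma, so it was not called. In all, 7 of the 37 members had an unadjusted p under 0.05 for sex, compared with 4.71% of all genes. *Lamb1* and *Lama3* had male minus female differences of -0.66 and -0.85, with adjusted p of 0.875 and 0.890 in limma. Whether the change from 12w+dox to 12w-res differed between the sexes was tested by an interaction term in limma. None of the 37 members passed (lowest adjusted p = 0.999), 3 had an unadjusted p under 0.05, where 4.24% of all genes did, and 13 of 15108 genes passed. Among females alone, 14 members were called higher and none lower in 12w-res against 12w+dox, where 5.09% and 4.21% of all genes were.

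**Figure D3:**
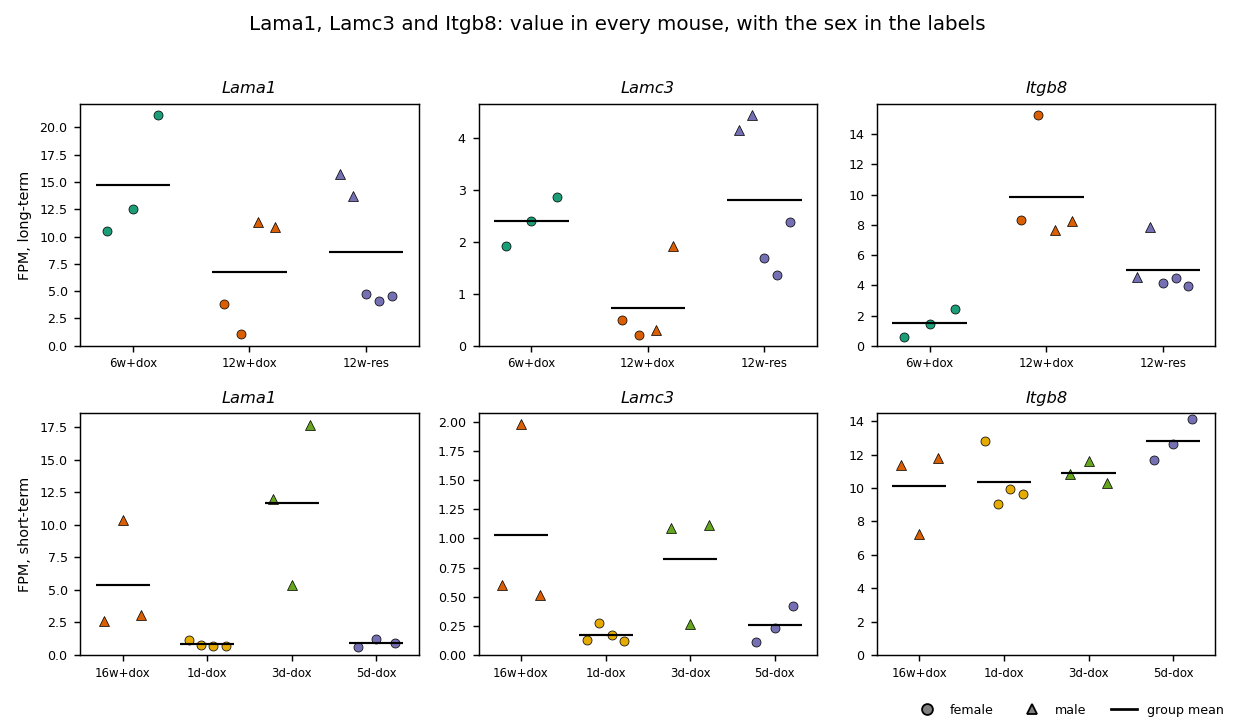
FPM (y axis, linear, from 0) of *Lama1*, *Lamc3* and *Itgb8* in each mouse of the long-term groups (top) and the short-term groups (bottom), with female mice as circles, male mice as triangles and group means as lines. *Lama1* is higher in the males of 12w+dox, 12w-res, 16w+dox and 3d-dox than in the females of the same experiment, apart from the 6w+dox females, and *Itgb8* is lowest at 6w+dox.

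In the days after dox withdrawal no member was called by limma. At 1d-dox, 3d-dox and 5d-dox against 16w+dox, and at 5d-dox against 1d-dox, 0 of 35 members passed, where 0.043%, 0.129%, 0.193% and 0.0143% of all genes did, and edgeR called none either, where it called 0.0358%, 0.107%, 0.229% and 0.0143% of all genes. At an unadjusted p under 0.05 in limma, 0 members were higher and 11 lower at 1d-dox, 3 higher and 3 lower at 3d-dox, 3 higher and 11 lower at 5d-dox, and 1 higher and 1 lower between 5d-dox and 1d-dox, where 13.1%, 16.6%, 13.5% and 6.33% of all genes had such a p in either direction. The first 3 comparisons share the 16w+dox mice. The medians were -0.17, -0.034, -0.15 and 0.044, against at most 0.0092 in size over all genes. DESeq2 on the recovered reads called 3 members lower at 1d-dox, where it called 0.81% of all genes, and 1 lower and 1 higher at 5d-dox, where it called 1% of all genes. It called none at 3d-dox or between 5d-dox and 1d-dox, where it called 0.745% and 0.0502%.

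**Figure D4:**
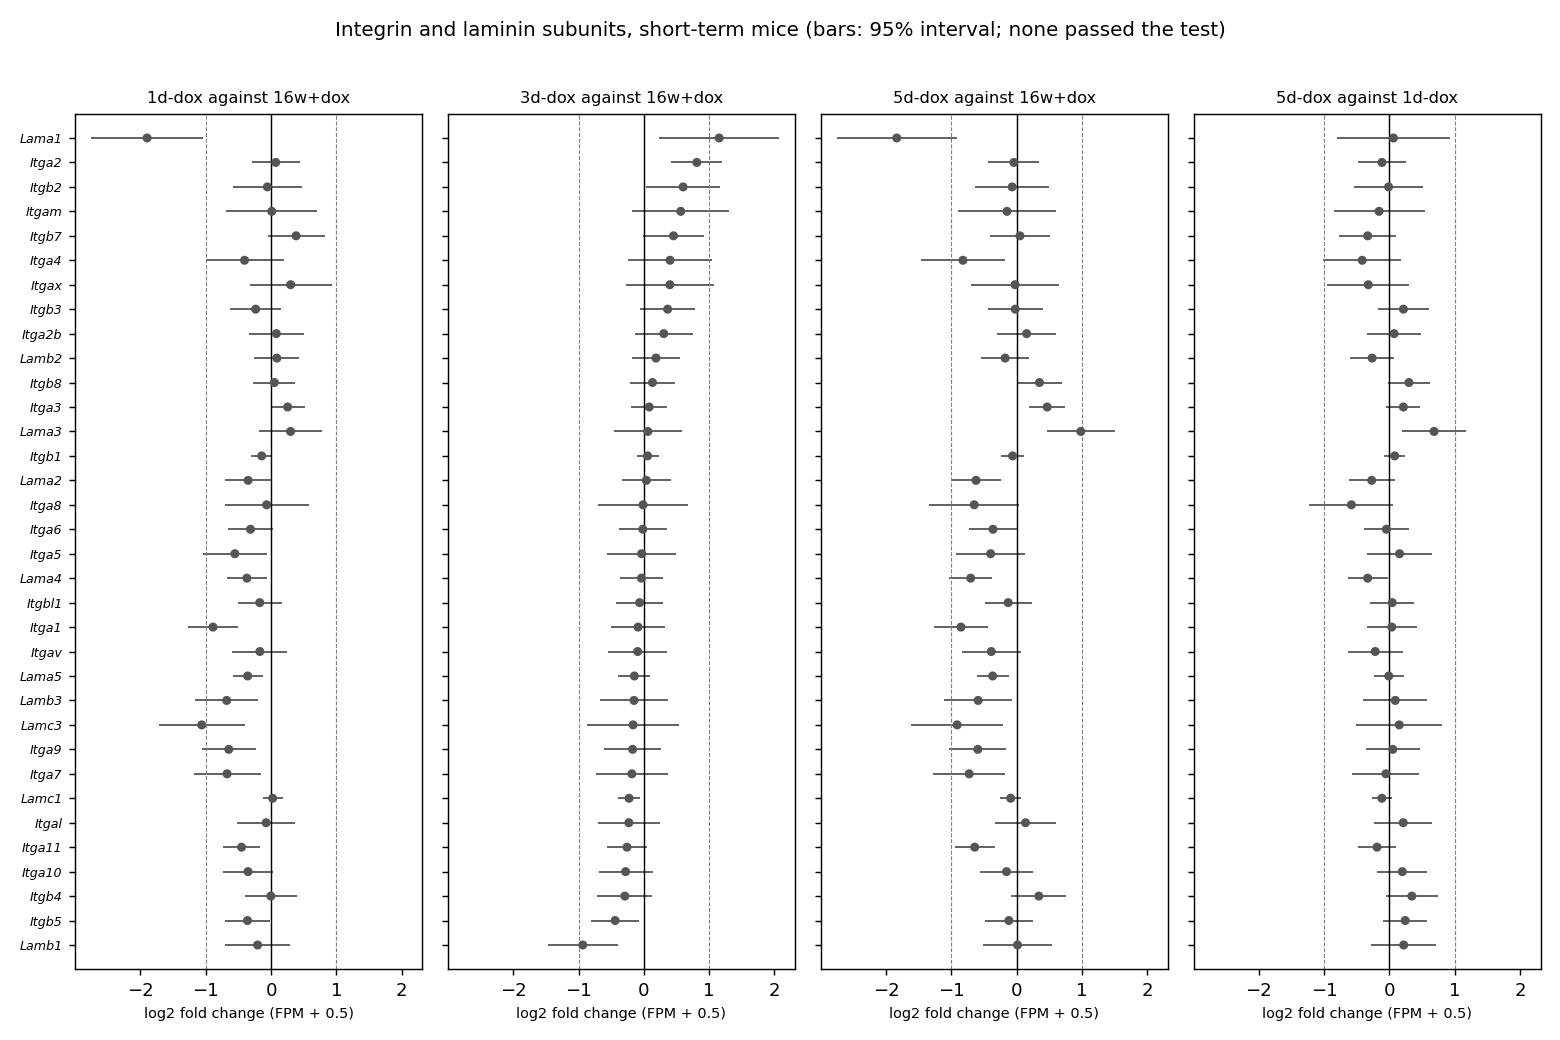
Log2 fold change of FPM + 0.5 (x axis, the same range in the 4 panels) with its 95% interval for 34 of the 35 measured members (y axis) at 1, 3 and 5 days after dox withdrawal against 16w+dox, and at 5d-dox against 1d-dox; dashed lines mark a change of 1. No member passed the test, and *Lama1* lies lowest at 1d-dox and 5d-dox and highest at 3d-dox.

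In the short-term mice *Lama1* read 2.62, 10.4 and 3.09 FPM in the 16w+dox mice, 1.19, 0.763, 0.698 and 0.725 in the 1d-dox mice, 12.0, 5.38 and 17.7 in the 3d-dox mice and 0.589, 1.22 and 0.928 in the 5d-dox mice. All 6 male mice (16w+dox and 3d-dox) stood above all 7 female mice (1d-dox and 5d-dox). DESeq2 gave -2.67 at 1d-dox and -2.55 at 5d-dox (adjusted p = 9.90e-04 and 0.00409), and limma gave -1.90 and -1.84 (adjusted p = 0.0872 and 0.0803). Within males, 3d-dox differed from 16w+dox by 1.15 (95% interval 0.23 to 2.07, adjusted p = 0.201 in limma), and the female 5d-dox and 1d-dox mice overlapped. *Lamc3* read 0.599, 1.98 and 0.510 FPM in the 16w+dox mice, 0.129, 0.275, 0.175 and 0.117 in the 1d-dox mice, 1.09, 0.265 and 1.11 in the 3d-dox mice and 0.112, 0.234 and 0.422 in the 5d-dox mice, and *Lamb3* read 0.225, 1.07 and 0.179 FPM in the 16w+dox mice, 0.0516, 0.0305, 0.0748 and 0.140 in the 1d-dox mice, 0.326, 0.367 and 0.288 in the 3d-dox mice and 0.112, 0.104 and 0.113 in the 5d-dox mice. DESeq2 called both lower at 1d-dox, at -2.58 and -2.68 (adjusted p = 0.00970 and 0.0321), and for both the 1d-dox and 16w+dox mice did not overlap. The lowest 1d-dox mouse of *Lamb3* stood at the value of 1 read. Markers of the other hormone cells of the gland summed to 194 to 219 FPM at 16w+dox, 22 to 103 at 1d-dox, 165 to 872 at 3d-dox and 24.2 to 101 at 5d-dox, with 2 of 10 at 0 in some mice of 1d-dox and of 5d-dox, and their part in the *Lama1* and *Lamc3* values was not tested.

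*Lama3*, the epithelial alpha chain that rose after 6 weeks without dox, read 3.64, 2.35 and 4.85 FPM in the 16w+dox mice, 4.23, 5.04, 3.12 and 5.59 in the 1d-dox mice, 2.95, 4.24 and 3.89 in the 3d-dox mice and 6.48, 6.23 and 9.90 in the 5d-dox mice. All 5d-dox mice lay above all 16w+dox and all 1d-dox mice, with 0.98 ± 0.24 against 16w+dox and, within females, 0.68 ± 0.23 against 1d-dox (adjusted p = 0.0936 and 0.655 in limma). DESeq2 called the first of these at 1.06 (adjusted p = 0.0114). *Lamb1*, which rose with it in the long-term mice, read 51.1, 35.4 and 42.8 FPM in the 16w+dox mice, 42.2, 53.4, 25.7 and 31.9 in the 1d-dox mice, 20.3, 27.7 and 19.0 in the 3d-dox mice and 41.2, 33.0 and 58.6 in the 5d-dox mice, with the 3d-dox mice below all 16w+dox mice at -0.94 ± 0.25 (adjusted p = 0.104 in limma).

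Among the integrins, *Itga1* read 5.24, 5.72 and 5.26 FPM in the 16w+dox mice, 2.66, 2.08, 3.02 and 3.11 in the 1d-dox mice, 7.54, 3.96 and 4.28 in the 3d-dox mice and 2.86, 2.78 and 2.67 in the 5d-dox mice. The 1d-dox and 5d-dox mice lay below all 16w+dox mice, with log2 differences of -0.89 ± 0.18 and -0.85 ± 0.19 (adjusted p = 0.0779 and 0.0718 in limma). *Lama4* showed the same order at 5d-dox, with -0.70 ± 0.15 (adjusted p = 0.0640 in limma). In these female groups the summed endothelial markers were 19.1 to 24.4 FPM at 1d-dox and 14.0 to 19.1 at 5d-dox, against 32.6 to 55.4 at 16w+dox and 30.2 to 55.5 at 3d-dox, and those of mural cells and fibroblasts were 59.0 to 86.1 and 57.5 to 93.4 against 129 to 181 and 99.0 to 187 FPM. Of the 11 endothelial markers 3, and of the 14 mural and fibroblast markers 3, were called lower at 5d-dox, and their part in the member values was not tested. Of the basement membrane partners, 2 of 13 measured fell at 5d-dox, *Col4a1* by 1.16 and *Sparc* by 1.05 on the log2 scale (adjusted p = 0.0121 for each in limma), and the other pathway lists held no call in the short-term mice. *Itga2*, rare in both experiments, read 0.275, 0.0267 and 0.179 FPM in the 16w+dox mice, 0.206, 0.0916, 0.324 and 0.140 in the 1d-dox mice, 0.587, 0.734 and 0.618 in the 3d-dox mice and 0.252, 0.0779 and 0.0844 in the 5d-dox mice, with the 3d-dox mice above all 16w+dox mice at 0.81 ± 0.18 (adjusted p = 0.0724 in limma). *Itga3*, the abundant laminin receptor chain, read 38.8, 42.3 and 35.8 FPM in the 16w+dox mice, 47.4, 54.4, 40.9 and 44.3 in the 1d-dox mice, 40.1, 50.2 and 34.7 in the 3d-dox mice and 48.1, 54.6 and 59.9 in the 5d-dox mice, with the 5d-dox mice above all 16w+dox mice at 0.47 ± 0.13 (adjusted p = 0.132 in limma).

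In 12w-res, 14 members rose against 12w+dox and 16 against 6w+dox. The bases before the starts of the members were read from RefSeq promoters (GRCm38.p6), which held 24 of the 37 members. For 12 of them the 250 bases before the start lie outside the gene's RefSeq bounds, and for the other 12 they overlap the gene and were not counted. The letters GGGCGG, the core of the GC box that Sp factors bind, stood on either strand in 5 of the 12 outside windows. Genes called higher in 12w-res against either dox-treated group were counted as risen, *Itgb8* among them through its call against 6w+dox. Of the 6 outside windows of risen genes, 2 held GGGCGG, as did 3 of the other 6. It stood in 26.8% of the 19828 windows of all genes that lie outside their own gene. The E2F-type letters TTTNGCGC, also sought on both strands, were found in 0 of the 12 and in 1.02% of those 19828 windows. Both motifs are matches of letters and say nothing of binding. The windows of *Itga5* and *Itga1*, which rose in 12w-res, of *Itgb5*, which separated from all dox-treated mice, and of *Itgb8*, which rose under dox, are printed 5′ to 3′ on the strand of the gene, with each GGGCGG or CCGCCC in capitals.
Itga5, chr15:103366792-103367041, minus strand: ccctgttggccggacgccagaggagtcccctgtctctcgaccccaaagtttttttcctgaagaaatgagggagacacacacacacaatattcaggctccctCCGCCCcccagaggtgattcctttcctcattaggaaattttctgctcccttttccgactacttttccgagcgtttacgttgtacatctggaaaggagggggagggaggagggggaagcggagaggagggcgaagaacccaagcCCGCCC
Itga1, chr13:115101965-115102214, minus strand: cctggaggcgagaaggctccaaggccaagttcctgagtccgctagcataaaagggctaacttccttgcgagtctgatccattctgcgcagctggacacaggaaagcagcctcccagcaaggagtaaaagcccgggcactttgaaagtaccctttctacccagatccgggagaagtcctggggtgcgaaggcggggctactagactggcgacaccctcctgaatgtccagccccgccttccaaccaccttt
Itgb5, chr16:33829415-33829664, plus strand: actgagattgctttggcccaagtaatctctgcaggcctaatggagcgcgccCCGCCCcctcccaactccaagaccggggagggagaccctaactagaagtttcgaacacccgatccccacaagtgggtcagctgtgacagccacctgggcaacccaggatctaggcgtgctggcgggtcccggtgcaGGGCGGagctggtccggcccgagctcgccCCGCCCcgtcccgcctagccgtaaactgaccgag
Itgb8, chr12:119238277-119238526, minus strand: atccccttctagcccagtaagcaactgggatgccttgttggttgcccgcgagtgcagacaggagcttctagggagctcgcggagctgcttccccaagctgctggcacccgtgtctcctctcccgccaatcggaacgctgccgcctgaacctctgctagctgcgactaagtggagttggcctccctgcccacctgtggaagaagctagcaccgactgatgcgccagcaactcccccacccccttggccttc
*Itga5* holds 2 of these boxes and *Itgb5* holds 3, while *Itga1*, with one of the widest rises, and *Itgb8* hold none in this window.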

How the data were processed

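RNA of 25 whole mouse pituitaries, which the paper describes as tumors, was sequenced in 2 experiments. According to the methods and labels, the authors aligned reads with STAR 2.5.1b to mm10 and RefSeq genes and computed FPM with DESeq2. The deposited signal values are therefore counts divided by size factors, with no length correction. The counting tool and the use of strand are not given in the sources used here, so that reads of overlapping genes on opposite strands cannot be told apart. In every column 100% of values were whole multiples of 1 read within 0.1 read. Of the short-term lines, 4 name no gene and hold 68.8% to 75.0% of the signal. They were left out.

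The test was limma 3.58.1 in R 4.3.3 on log2(FPM + 0.5), with all groups of an experiment in 1 fit and Benjamini-Hochberg adjustment over all genes with 10 reads in over 50% of the samples of a group. A call needed an adjusted p under 0.05 and over 1 on the log2 scale, and the pseudocount understates changes of low genes. Intervals are 95% intervals of this fit. Alternatives were edgeR 4.0.16 and DESeq2 1.42.0 on the recovered reads, scaling by totals or TMM, pseudocounts 0.1 and 1, other filters, sex, a replicate block and leaving out each mouse. The limma step was tested on simulated data. The 2 tables were normalized separately, and no test crosses them.

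Groups came from the labels, and replicates are single mice. No 2 replicates had counts as alike as sampling noise gives (the smallest ratio of chi-square to its degrees of freedom was 3.90). Every member is accounted for in the counts. Members called by any tool are given in every mouse of the experiment where they were called, and the rest by range or difference. From each pathway list at most the 2 largest calls per direction are named, with the exceptions stated. The values of 1 member are not reported here, and it is left out of the plots while the counts hold it. The members and lists were chosen with earlier results of these data known. Positions and promoters are from RefSeq on GRCm38.p6.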

Additional observations from a re-analysis of the deposited data

Results flagged for a closer look

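In groups of 4 or 5 mice, 8 of 109 pairs of member and group held a mouse set apart from the others by Dixon's criterion, which chance alone meets in about 1 of 20 groups. *Itgb8* was set apart in both groups that separate dox from recovery. In 12w+dox replicate 2 it was highest at 15.2 FPM, with the other 3 mice at 7.64 to 8.30, and in 12w-res replicate 2 it was highest at 7.87 FPM, with the others at 3.92 to 4.58. *Itgam* was highest in 12w+dox replicate 1 at 5.02 FPM, with the others at 2.13 to 2.29, and *Lamc3* was highest in 12w+dox replicate 4 at 1.93 FPM, with the others at 0.204 to 0.489. *Itga9* was lowest in 12w-res replicate 1 at 7.75 FPM, with the others at 9.88 to 10.6. In the short-term mice, 1d-dox replicate 1 was highest for *Itgb2* at 2.63 FPM, with the others at 1.01 to 1.19, and for *Lama1* at 1.19 FPM, with the others at 0.698 to 0.763. *Itgb5* was highest in 1d-dox replicate 2 at 17.6 FPM, with the others at 10.7 to 11.8.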

How the results depend on the processing

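With libraries scaled to their total reads, the members called higher and lower were 4 and 2 between 12w-res and 12w+dox, 10 and 2 between 12w-res and 6w+dox, and 2 and 0 between 12w+dox and 6w+dox, where 1.59% and 22%, then 3.25% and 10.7% of all genes were called in the first 2 comparisons. Between 12w+dox and 6w+dox the median under this scaling was 0.27 over the members and 0.29 over all genes, so the members did not stand out. *Itgb1*, *Itga6* and *Lamc1* turned to -0.28, -0.17 and -0.20 between 12w-res and 12w+dox, while the median of all genes moved to -0.61. Without a minimum fold, the counts were 24 higher and 2 lower between 12w-res and 12w+dox, where 5782 of 15315 genes passed in either direction. Between 12w-res and 6w+dox 23 members passed, 2 of them lower, where 5172 genes passed. Between 12w+dox and 6w+dox 2 members were higher and 2 lower, where 3433 genes passed. For 12w+dox against 6w+dox, DESeq2 called 2 members higher (median 0.074 over the members and -0.016 over all genes), and the lower call of *Lamc3* became 0 with edgeR, with 10 reads asked of every sample (32 members tested) and with the replicate block. The lower calls there became 2 with sex as a covariate and among females alone, and against 6w+dox 12w-res then had 1 lower call. Between 12w-res and 12w+dox edgeR and DESeq2 each called 1 lower. In the short-term mice DESeq2 called 3 members lower at 1d-dox, and 1 higher and 1 lower at 5d-dox. The cause of these moves was not tested. TMM scaling, no filter and a fit of only the groups compared moved no count of calls by more than 1.5 times, nor did pseudocounts of 0.1 and 1.

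Leaving out 1 mouse at a time gave 12 to 20 higher and 0 to 1 lower between 12w-res and 12w+dox, with the fewest without 12w+dox replicate 3 and the most without 12w+dox replicate 1. In these 2 fits the medians were 0.83 and 1.04 over the members and 0.0017 and -0.0091 over all genes. It gave 14 to 19 higher and 0 lower between 12w-res and 6w+dox, 1 to 2 higher and 0 to 2 lower between 12w+dox and 6w+dox, and 0 in each short-term comparison.

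Same-numbered mice had correlations of their deviations of -0.17 to 0.24 over 10 long-term pairs and -0.21 to 0.17 over 18 short-term pairs. For mice of different numbers these were -0.33 to 0.32 and -0.17 to 0.33. The check gave no sign that the replicate numbers pair mice, and it cannot exclude a pairing. With the replicate block, 13 members were called higher between 12w-res and 12w+dox, 12 between 12w-res and 6w+dox and 1 between 12w+dox and 6w+dox. The medians there were 0.91, 0.70 and -0.023 over the members and -0.0020, -0.025 and -0.0078 over all genes. The short-term libraries held fewer reads on genes than the long-term libraries, which limits rare members such as *Itga2* and *Lamb3*.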
